A study of Sus scrofa with 50 samples.

Results

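The solute carrier family transporters described here are the transcripts of a de novo assembly whose best Swiss-Prot match carries a recommended name that begins with "Solute carrier family", with the entries GTR2, S40A1 and S2539 left out. This gave 202 of 57085 transcripts, which were summed to 89 entries of 14532 in all. The entries belong to 21 families, and 35 of them rest on 1 transcript. Entry names are used below (S22AC is the product of SLC22A12), and the median identity of a member transcript to its matched protein was 91.1%. Many carriers have other recommended names, among them SC5A2 (SGLT2) and NPT2A, and are not members.

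Solute carriers are membrane proteins that move ions, sugars, amino acids, vitamins, organic acids and drugs across cell and organelle membranes. In the kidney tubule they recover filtered solutes and secrete waste, in hepatocytes they take up compounds from the blood, and in mitochondria they exchange metabolites with the cytosol.

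Messenger RNA was sequenced from 5 tissues of 10 Korean minipigs (Sus scrofa), giving 50 libraries of kidney, liver, lung, heart and spleen. The 5 ET-type animals are S0235, S0242, S0276, S0309 and S0326. The 5 of L-type are S0349, S0355, S0377, S0384 and S0385. The labels used here give the type and the animal and no treatment, age or sex. Levels are TPM, the share of a library's transcripts scaled to a sum of 1000000, and the read depth behind them is not given in the sources used here. In bulk tissue, fewer cells of a kind and less RNA per cell cannot be told apart.

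The kidney library of ET-type S0235 stood apart from the other 9. The kidney markers UROM, AQP2, CUBN and PODO summed to 1.60 TPM in it, against 1109 to 6401 TPM in the other kidneys, and 6 lymphoid markers summed to 4275 TPM, among them CD3E at 553 TPM and CCL21 at 1648 TPM. It is shown apart throughout, and kidney values are those of 9 libraries, 4 ET-type and 5 L-type. Heart, liver and lung held the markers of their labels. Heart muscle markers summed to 4295 TPM or more in every heart, hepatocyte markers to 61433 TPM or more in every liver and lung epithelium markers to 2214 TPM or more in every lung, against at most 38.1, 57.3 and 0.688 TPM in any library of another tissue. No markers were listed for spleen alone. Lymphoid markers summed to 209 to 1251 TPM in spleen, overlapping the 166 to 520 TPM of lung. Red cell markers summed to 5432 TPM or more in every spleen, against at most 1150 TPM elsewhere.

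Kidney had the highest summed solute carrier level and the most called members. The members summed to 4010 ± 1323 TPM in kidney (SD, n = 9), 3025 ± 556 TPM in liver, 2448 ± 865 TPM in heart, 1911 ± 352 TPM in lung and 1232 ± 267 TPM in spleen (n = 10 each). These sums include S12A3, at a mean of 706 TPM in kidney and 541 TPM in liver. Outside kidney nearly all of the S12A3 level came from 1 transcript with a short match, present or nearly absent by animal (below). By mean level, kidney was the highest tissue of 24 members, liver and lung of 19 each, spleen of 15 and heart of 12. At the other end, 40 members reached a mean of 1 TPM in all 5 tissues and 9 did so in 1 tissue only. More than 90% of the summed tissue means lay in 1 tissue for 10 members, 7 of them in kidney and 2 in liver, the last being S26A9 in lung.

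A member was called higher in a tissue when limma on log2(TPM + 1) over 29725 genes gave a Benjamini-Hochberg adjusted p below 0.05, the log2 difference from the mean of the other 4 tissues was at least 1, and both types' means exceeded those of every other tissue. Of the 89 members, 85 passed the filter on low values (a mean of 1 TPM over the libraries fitted). All genes tested include transcripts without a Swiss-Prot entry, each counted as 1 gene, while every member has an entry. The share over entries alone was not computed. Of the 85 members, 20 (23.5%) were called higher in kidney, against 9.07% of all genes tested. In spleen 11 members (12.9%) were called, against 7.06% of all genes, and in liver 10 (11.8%), against 6.78%. In lung the 9 called members (10.6%) stood below the 21.3% of all genes, and in heart the 5 called members (5.88%) were near the 4.56% of all genes. Log2 differences below are on the log2(TPM + 1) scale, which understates the change of low transcripts. The fit takes 1 variance per gene over all 49 libraries. For a member near 0 outside 1 tissue, the SE and p therefore understate the spread between animals within that tissue.

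**Figure D1:**
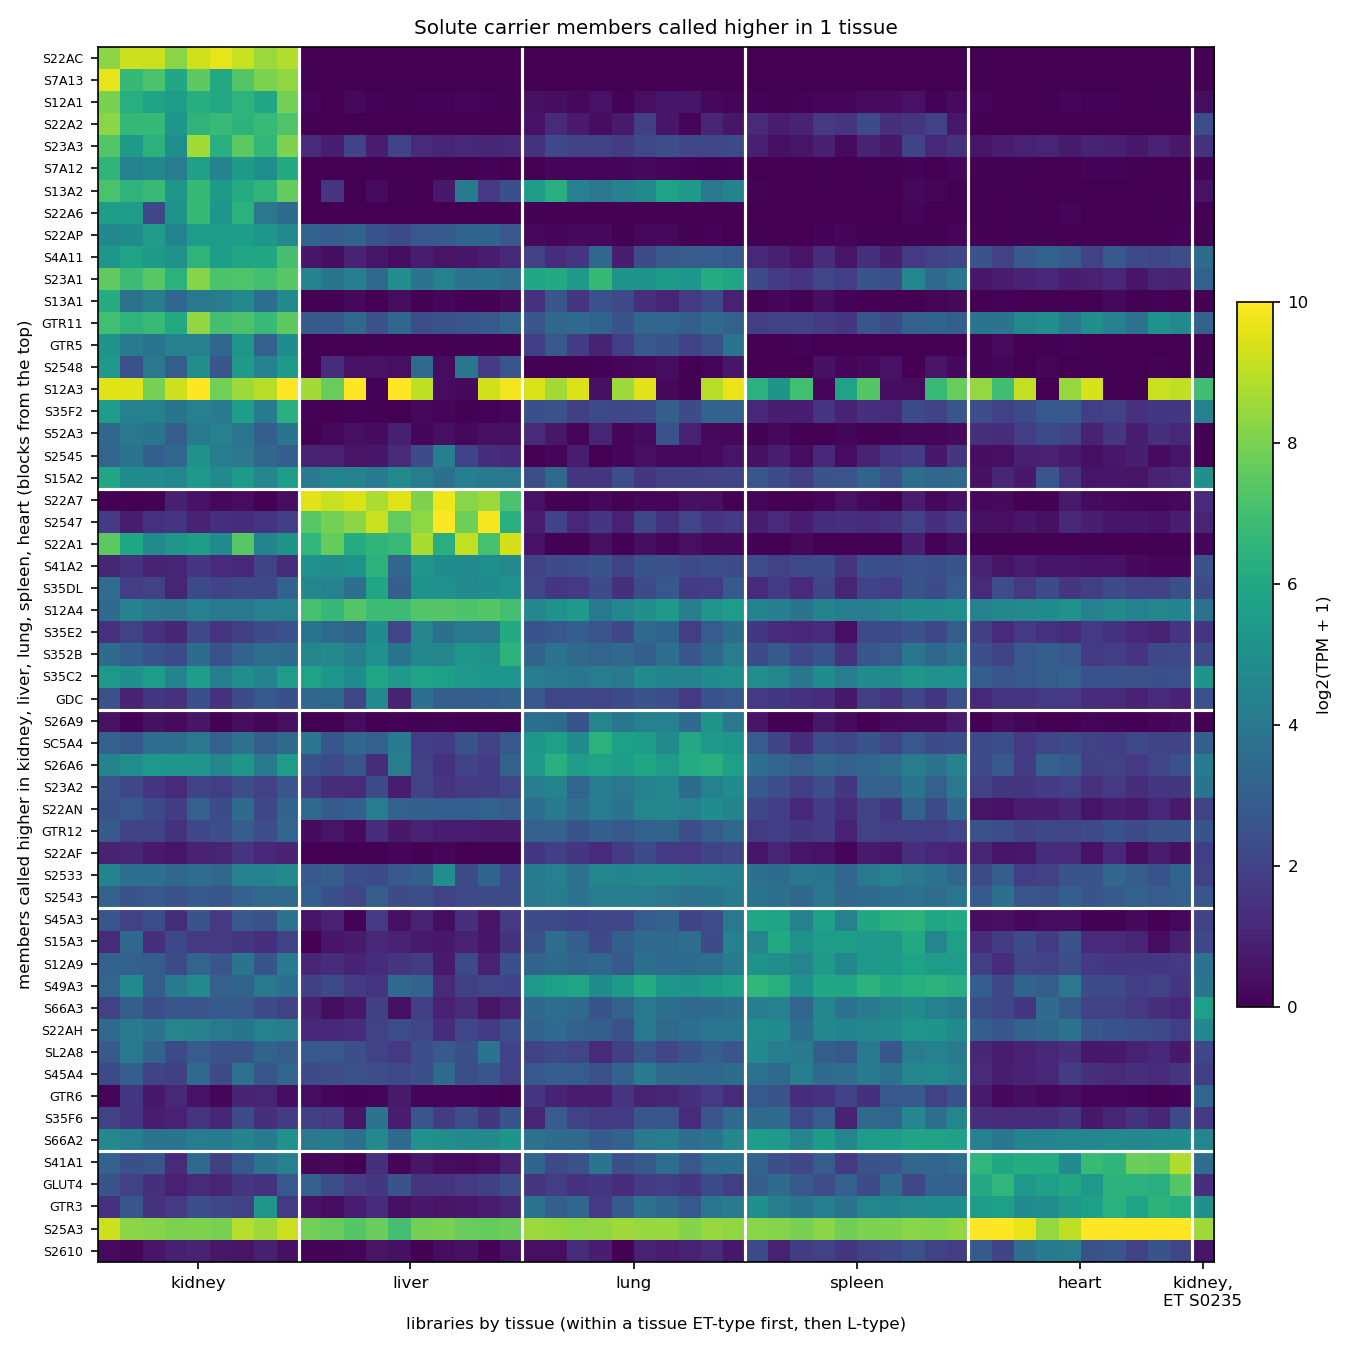
Colour gives log2(TPM + 1) of each member called higher in 1 tissue (rows, in blocks for kidney, liver, lung, spleen and heart) in each library (columns, by tissue, ET-type before L-type). The kidney block is bright in the 9 kidneys and mostly dark in the kidney library of ET-type S0235 in the last column, with S15A2, S35F2, S4A11 and S12A3 as the exceptions above 10% of their kidney mean, and S12A3 is dark in the same 3 animals in every tissue but kidney.

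The kidney members were led by carriers of organic ions, of which 4 of 12 were called. S22AC (URAT1, SLC22A12), which takes urate back from the tubular fluid, ranged from 297 TPM in ET-type S0326 to 782 TPM in L-type S0355, with a median of 571 TPM. It was listed at 0 in every heart, liver and lung library, in 9 of 10 spleens and in the S0235 kidney library. Its log2 difference of 8.90 ± 0.09 (SE, adjusted p = 4.1e-48) was the largest of any member. That SE rests mostly on libraries at 0. In the fit of kidney alone, the SE of the S22AC type difference was 0.33. RefSeq places its gene at chr2:7557822-7565801 of the pig build Sscrofa11.1, which is used for all positions here.

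S22A2 (OCT2), the basolateral uptake carrier for organic cations, ranged from 37.6 to 303 TPM in kidney with a median of 103 TPM and had a mean of 1.79 TPM in spleen, its next highest tissue. S22A6 (OAT1), the uptake carrier for organic anions such as para-aminohippurate, varied more between animals, from 3.55 TPM in ET-type S0309 to 102 TPM in L-type S0349, with a median of 37.4 TPM. It was at or below a mean of 0.0251 TPM elsewhere. The fourth, S22AP (SLC22A25), had a kidney mean of 35.6 ± 10.2 TPM, but its 2 transcripts match the human protein over at most 80 residues at up to 69.1% identity.

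Salt reabsorption was represented by S12A1 and S12A3. S12A1 (NKCC2), the sodium-potassium-chloride cotransporter of the thick ascending limb and the target of loop diuretics, had a kidney mean of 107 ± 80.0 TPM and a mean of at most 0.296 TPM in any other tissue. Its log2 difference was 6.30 ± 0.15 (adjusted p = 6.82e-34), and its gene lies at chr1:123481892-123571655. In 7 of the 9 kidneys it lay between 48.1 and 90.6 TPM, and in L-type S0385 and ET-type S0242 it reached 237 and 256 TPM. These were also the kidneys with the most UROM (uromodulin, a product of the same segment), at 5281 and 4890 TPM against 230 to 1775 TPM in the other 7, and with the lowest mitochondrial share of TPM, 12.3% and 14.0% against 21.0% to 45.6%. The part of these measures in the S12A1 level was not tested.

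S12A3 (NCC), the thiazide-sensitive sodium-chloride cotransporter of the distal convoluted tubule, gave an entry sum that was high in every tissue, with means of 706 TPM in kidney, 541 TPM in liver, 425 TPM in lung, 312 TPM in heart and 76.7 TPM in spleen. The sum joins 3 transcripts of unlike behaviour, and the gene lies at chr6:18844752-18885497 between NUP93 and HERPUD1. One of 4839 bases matches human S12A3 over 1021 residues and one of 3468 bases matches it over 46 residues. Together these had a kidney mean of 288 ± 190 TPM, from 40.8 TPM in L-type S0384 to 705 TPM in L-type S0385, and reached at most 0.225 TPM in any library of another tissue. In the S0235 kidney library they stood at 0.105 TPM.

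The third S12A3 transcript, of 2292 bases, matches the protein over 27 residues only and was present or nearly absent by animal, not by tissue. In S0309, S0355 and S0377 it reached at most 8.09 TPM in any of the 5 tissues, and its highest value in each of these animals was that of the kidney. In the other 7 animals its lowest value was 34.7 TPM, in the spleen of S0242, and its highest 1749 TPM, in the liver of S0276. The 3 animals at the low level are 1 ET-type and 2 L-type. Without the 2 short matches the kidney log2 difference of S12A3 was 7.06 (adjusted p = 2.03e-30), an alternative chosen after seeing the data. With them it was 3.21 ± 1.36 (adjusted p = 0.0388), and the call was lost under 8 of the alternatives, with adjusted p up to 0.0849.

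**Figure D2:**
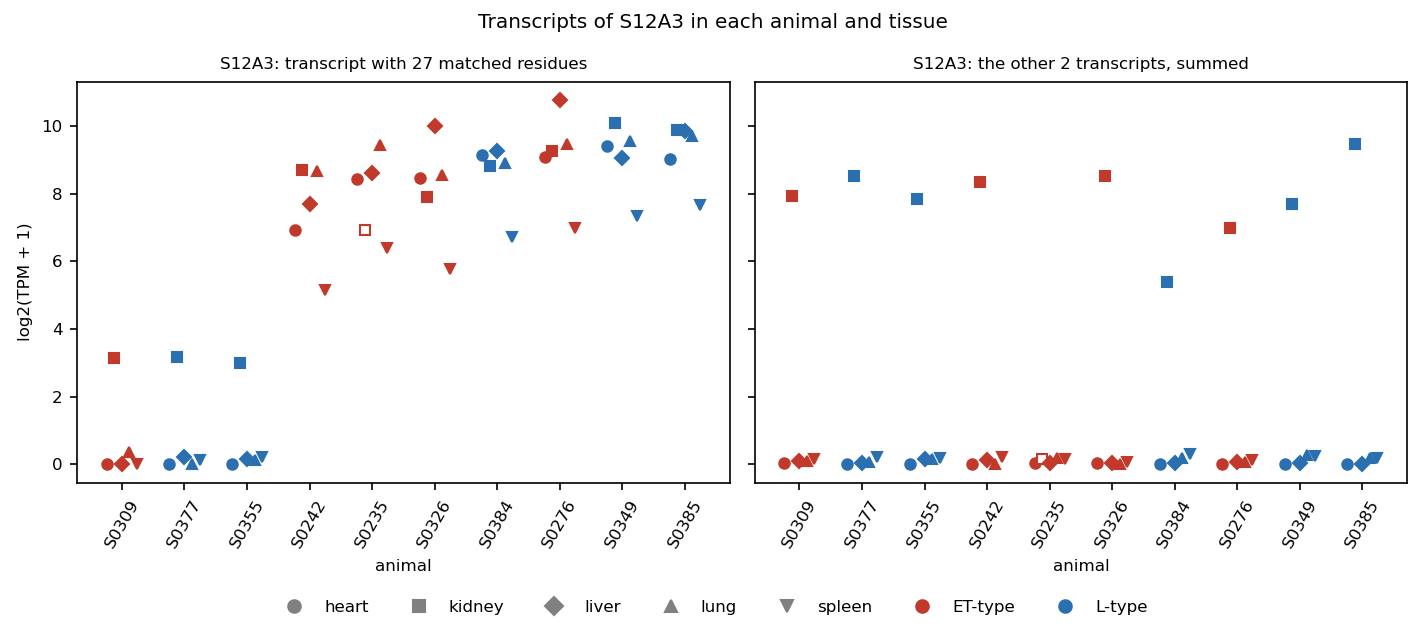
Each point is 1 library, with the animal on the x axis and log2(TPM + 1) on the y axis; shape gives the tissue, colour the type, and the open square the kidney library of ET-type S0235. On the left, the transcript with 27 matched residues lies near 0 in all tissues but kidney of S0309, S0377 and S0355 and at 34.7 TPM or more in every tissue of the other 7 animals; on the right, the other 2 transcripts are seen in kidney only.

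Carriers of vitamins, anions, sugars and amino acids were also called in kidney. Of 5 vitamin carriers 3 were called. S23A1 (SVCT1), which reabsorbs ascorbate, ranged from 85.0 to 288 TPM in kidney with a median of 153 TPM and had its next highest mean, 55.5 TPM, in lung. S23A3, a relative with no settled substrate, ranged from 30.6 to 394 TPM with a median of 98.5 TPM, and S52A3, a riboflavin transporter, averaged 12.9 ± 4.29 TPM.

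Of 3 sulphate and dicarboxylate carriers 2 were called, both known from the apical membrane of the proximal tubule. S13A2 (NaDC1), which takes up citrate and succinate, had a kidney mean of 97.8 ± 48.7 TPM and a lung mean of 33.7 TPM. S13A1 (NaS1), which reabsorbs sulphate, ranged from 9.501 to 72.7 TPM with a median of 17.2 TPM.

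Among 9 hexose carriers, GTR11 (GLUT11) and GTR5 (GLUT5, a fructose transporter) were called in kidney. GTR11 had a kidney mean of 143 ± 78.9 TPM against 22.1 TPM in heart, its second tissue, and GTR5 one of 20.7 ± 10.9 TPM against 4.57 TPM in lung. The amino acid carriers S7A13 and S7A12 were near 0 outside kidney. S7A13 ranged from 63.1 to 821 TPM in kidney with a median of 159 TPM and was listed at 0 in every library of the other tissues. Its transcript matches the mouse protein over 466 residues at 54.5% identity, so the name rests on homology.

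The other called kidney members were S4A11 (61.6 ± 30.6 TPM), which belongs to the bicarbonate transporter family, S15A2 (PEPT2, a peptide reabsorption carrier; 35.4 ± 13.1 TPM, with 18.03 TPM in liver), S35F2 (30.9 ± 22.1 TPM) and the mitochondrial carriers S2548 (22.7 ± 15.8 TPM) and S2545 (13.2 ± 8.43 TPM). Of the 20 kidney calls, 18 held under all of 16 alternatives, and S12A3 and S15A2 did not. Under a stricter protein match, which left out transcripts with fewer than 100 matched residues or with another protein's open reading frame, 19 held, S22AP having no transcript left.

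The S0235 kidney library had little of most kidney members, and the rest varied widely. The 20 called members stood there at a median of 0.221% of the mean of the other kidneys, 12 of them below 1% and 16 below 10%. These 20 were picked for high levels in the other kidneys, and this library was set apart with few kidney markers. The shares given here are therefore a description and not a test. S22AC, S7A13, S13A1, GTR5, S52A3 and S2545 were at 0, S12A1 was at 0.302 TPM, and S15A2, the highest by share, was at 87.7%. The other 61 members with a kidney mean of at least 1 TPM stood at a median of 77.1%. They included S22AA at 0.0999%, S67A1 at 0.121% and S22A1 at 0.169%, and also GTR3 at 451% and S12A6 at 545%. Of the 11 members called in spleen, S66A3 was at 1000% of its kidney mean and the other 9 with a kidney mean of at least 1 TPM were at 41.9% to 150%. GTR6 was at 8.67 TPM, which is 1134% of a kidney mean of only 0.764 TPM.

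A list of transport partners outside the members, chosen with earlier results of these data known, holds carriers, channels, pump subunits and regulators. Some of them were also called higher in kidney. As the list was so chosen, the count that follows is a description and not a test. Of 37 listed partners 31 were measured and 29 tested, and 15 were called higher in kidney, where 9.07% of all genes were called. They included NPT2A, the phosphate cotransporter of the proximal tubule, at 532 ± 288 TPM, the neutral amino acid transporters S6A18 at 791 ± 372 TPM and S6A19 at 36.0 ± 32.9 TPM, SC5A2 (SGLT2) at 120 ± 68.1 TPM, and KCNJ1 (ROMK), which recycles potassium for S12A1, at 68.2 ± 47.4 TPM. WNK4, a kinase that regulates S12A3, was called too, at 20.3 ± 13.3 TPM. Among the partners not called there, SC5A1 and UT1 had kidney means of only 0.325 and 0.976 TPM, and SCNNA and SCNNB were called higher in lung.

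In liver the called members were led by organic anion and cation carriers and by a mitochondrial carrier. S22A7 (OAT2), a hepatic uptake carrier for organic anions, ranged from 138 TPM in L-type S0385 to 857 TPM in L-type S0355, with a median of 499 TPM, and averaged at most 0.222 TPM in another tissue. Its log2 difference was 8.57 ± 0.14 (adjusted p = 3.77e-41), and its gene lies at chr7:38328474-38334879. S2547, a mitochondrial carrier known from liver, ranged from 76.6 to 1249 TPM with a median of 274 TPM, the lowest and highest livers being those that were lowest and highest in S22A7. S22A1 (OCT1), which takes organic cations into hepatocytes, ranged from 72.4 to 658 TPM with a median of 122 TPM, and was highest in L-type S0385, the liver lowest in S22A7 and S2547. It also had a kidney mean of 67.4 ± 62.1 TPM.

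The remaining liver calls were lower and rested on more uneven matches. S41A2, a magnesium carrier, had a liver mean of 33.6 ± 19.3 TPM against 4.04 TPM in lung, and S35C2 (43.9 ± 10.1 TPM), S35E2 (19.8 ± 18.4 TPM), S352B (31.6 ± 20.8 TPM) and S35DL (27.4 ± 14.0 TPM) belong to the nucleotide sugar transporter family. GDC, a mitochondrial carrier, averaged 8.89 ± 6.74 TPM. S12A4 (KCC1), a potassium-chloride cotransporter, had a liver mean of 139 ± 22.2 TPM, of which 127 TPM came from 1 transcript that also holds an open reading frame matching LCAT, a lipid-modifying plasma enzyme, over 440 residues. The genes of both lie side by side in the RefSeq table. Without that transcript S12A4 was lower in liver than elsewhere by 0.43 on the log2 scale (a log2 difference of -0.43). Of the 10 liver calls, 8 held under the 16 alternatives, and GDC and S35C2 did not. Under the stricter protein match 8 held, and S12A4 and S352B did not. Both transcripts of S352B match over 78 residues and were left out.

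S22AA and S67A1 were high in both kidney and liver and were called in neither. S22AA, named for human SLC22A10, averaged 234 ± 119 TPM in kidney and 193 ± 76.4 TPM in liver and at most 0.306 TPM elsewhere. Its 7 transcripts split by tissue. One of 2055 bases, matched over 532 residues at 67.1% identity, averaged 68.1 TPM in kidney and 0.854 TPM in liver, and one of 2139 bases, matched over 539 residues at 65.7% identity, averaged 174 TPM in liver and 1.56 TPM in kidney. S67A1 averaged 209 ± 66.6 TPM in liver, 144 ± 53.1 TPM in kidney and 71.2 ± 38.0 TPM in lung, and 0.434 TPM or less in heart and spleen.

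Of the 5 heart members 4 are known as carriers of phosphate, magnesium or glucose. S25A3, which brings phosphate and copper into mitochondria, was the most abundant member in heart, from 344 TPM in ET-type S0309 to 2248 TPM in L-type S0385 with a median of 1561 TPM, and averaged between 205 and 378 TPM in the other tissues. GLUT4 (GTR4), the insulin-responsive glucose transporter of muscle, ranged from 38.8 to 164 TPM with a median of 70.1 TPM, with 6.73 TPM in spleen as its next mean (log2 difference 4.06 ± 0.18, adjusted p = 1.07e-23). S41A1, a magnesium transporter, ranged from 27.5 to 449 TPM with a median of 93.6 TPM, against 7.93 TPM in lung. GTR3 (GLUT3) averaged 53.6 ± 20.9 TPM in heart and 21.9 TPM in spleen.

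S2610 was the fifth heart member, at 7.47 ± 5.38 TPM; its transcript also holds an open reading frame of B4GN1. S2610 belongs to the anion transporter family SLC26. All 5 heart calls held under the 16 alternatives, and under the stricter protein match 4 held, without S2610. Median-ratio scaling, in which libraries are scaled by their median ratio to a common reference, raised the heart count to 10 and the liver count to 16, and lowered the lung count to 4.

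The 9 lung members came from several families, with 2 anion transporters (S26A9 and S26A6), 2 mitochondrial carriers (S2533 and S2543), 2 members of the organic ion family SLC22 (S22AN and S22AF), and 1 each for ascorbate (S23A2), hexoses (GTR12) and sodium-coupled sugar transport (SC5A4). S26A9, an anion transporter of airway epithelium, ranged from 4.99 to 35.6 TPM with a median of 14.6 TPM and averaged at most 0.265 TPM elsewhere (log2 difference 3.77 ± 0.13, adjusted p = 4.79e-29). It rests on 1 transcript with 88 matched residues. S26A6, an exchanger of chloride with oxalate and bicarbonate, averaged 57.3 ± 14.2 TPM in lung and 31.8 TPM in kidney. S23A2 (SVCT2), the ascorbate transporter of most non-epithelial cells, averaged 18.4 ± 5.84 TPM in lung and 6.91 TPM in spleen.

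SC5A4 (SGLT3) averaged 46.7 ± 18.03 TPM in lung, but 2 lung-assembled transcripts that match the rat protein over 71 residues at 63.4% identity carried 32.9 and 9.59 TPM of it. The transcript that matches pig SC5A4 over 660 residues averaged 2.98 TPM in lung and 8.77 TPM in kidney, and without the short matches the lung log2 difference was -0.26. The other lung calls were S22AN (18.3 ± 5.54 TPM), S2533 (20.2 ± 3.504 TPM), S2543 (15.7 ± 2.15 TPM), GTR12 (6.91 ± 1.49 TPM) and S22AF (2.53 ± 0.773 TPM). S22AN, S2533, S2543 and GTR12 each lost the call in at least 1 of the 16 alternatives, and S22AF was not tested under median-ratio scaling, so that 4 of 9 held in all. Under the stricter protein match 6 of the 9 held, and S26A9, SC5A4 and GTR12, whose only transcript was left out, did not.

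Spleen members included carriers known from leukocytes and lysosomes. S45A3 (prostein) ranged from 19.5 to 87.1 TPM with a median of 59.0 TPM, against a mean of 5.46 TPM in lung (log2 difference 4.19 ± 0.19, adjusted p = 1.22e-23). S15A3 (PHT2), a lysosomal peptide and histidine transporter of immune cells, ranged from 22.6 to 69.1 TPM with a median of 43.1 TPM. Its only transcript, of 3836 bases, also holds an open reading frame of T132A over 348 residues, and the 2 cannot be told apart.

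S12A9 averaged 38.0 ± 10.2 TPM in spleen, S49A3 72.1 ± 17.5 TPM with 45.7 TPM in lung, and S22AH, known as a lipocalin receptor, 26.1 ± 7.16 TPM with 16.7 TPM in kidney. The PQ-loop proteins S66A2 (43.0 ± 11.7 TPM) and S66A3 (18.6 ± 5.22 TPM), the hexose carriers SL2A8 (GLUT8, median 16.3 TPM) and GTR6 (GLUT6, 3.75 ± 1.85 TPM), S45A4 (16.0 ± 5.88 TPM) and S35F6 (10.8 ± 7.44 TPM) made up the rest. Of the 11 spleen calls 9 held under the 16 alternatives, and S35F6 and S66A2 did not; under the stricter protein match 10 held, without S15A3.

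**Figure D3:**
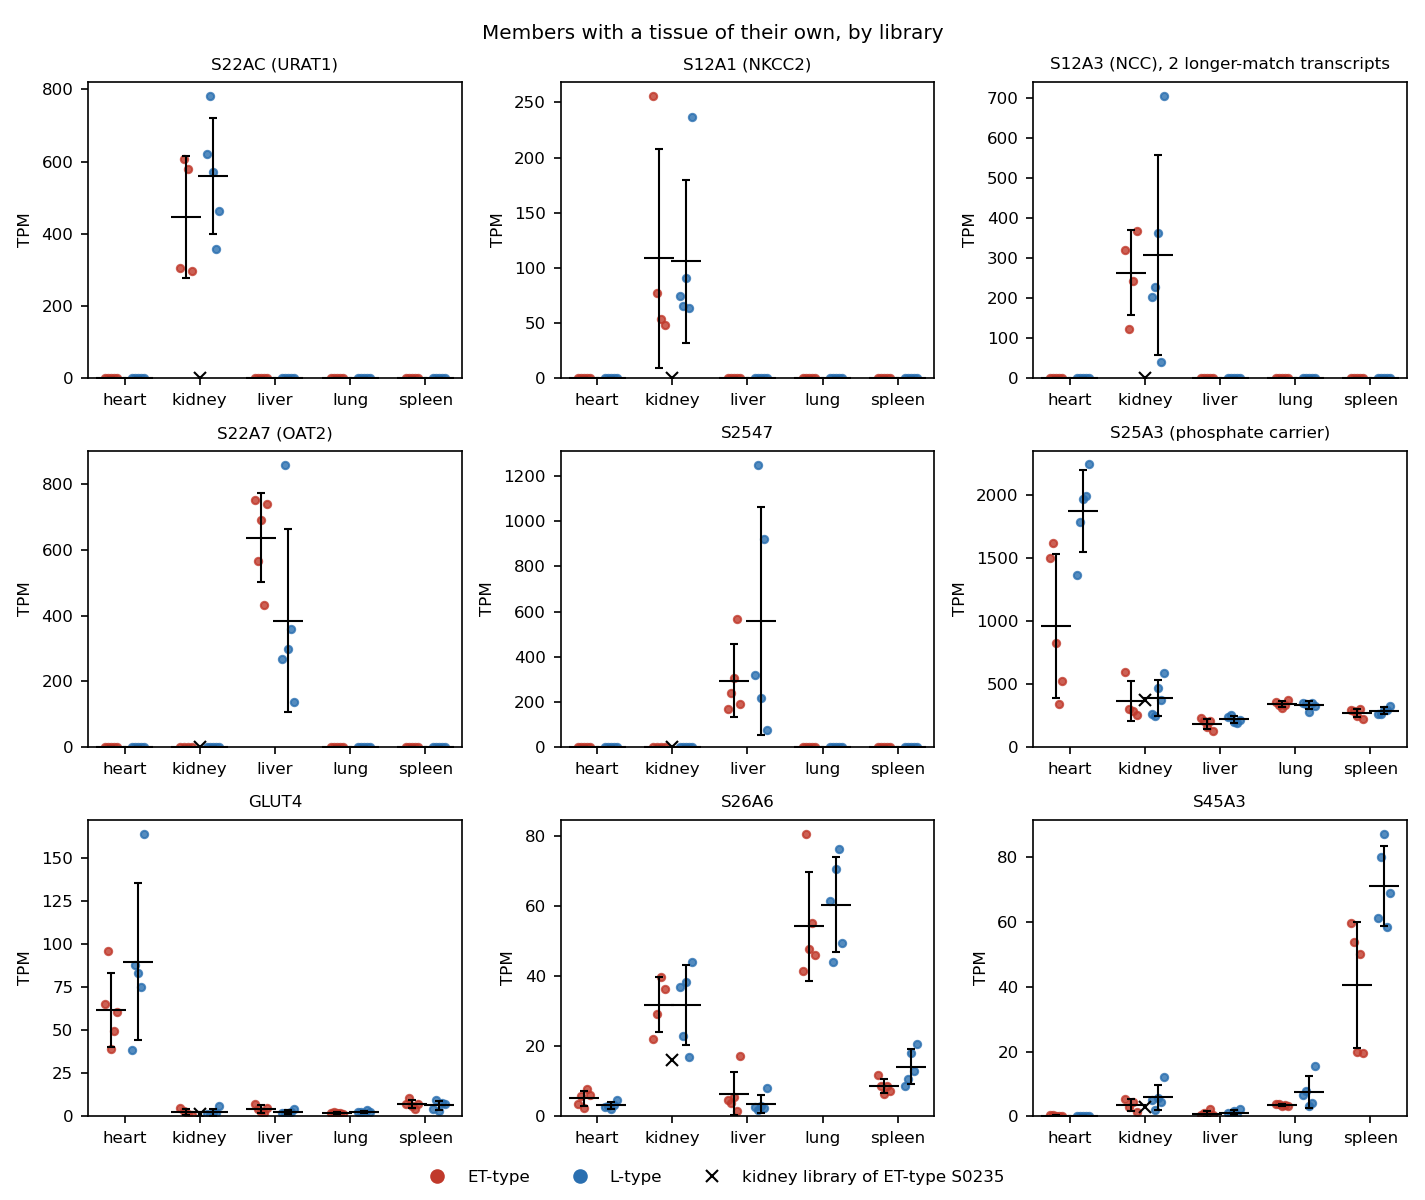
Each point is the TPM of 1 library, in columns for the 5 tissues and in red for ET-type and blue for L-type, with the mean and SD of each type as black bars and the kidney library of ET-type S0235 as a cross. S22AC, S12A1 and the 2 S12A3 transcripts specific to kidney lie near 0 in every tissue but kidney, S22A7 and S2547 in every tissue but liver, and S26A6 is seen in kidney as well as lung.

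By family, the carriers of organic anions and cations had their highest summed levels in kidney and liver. The 12 members summed to 1035 TPM on average in kidney (540 to 1355 TPM) and 960 TPM in liver (683 to 1298 TPM). In heart, lung and spleen they summed to 36.1 TPM or less on average. The highest of them differed, being S22AC in kidney (mean 509 TPM) and S22A7 in liver (mean 510 TPM). The 5 vitamin carriers summed to 332 ± 175 TPM in kidney and 85.6 ± 24.4 TPM in lung. The 13 mitochondrial carriers summed to 1521 ± 662 TPM in heart, of which S25A3 gave most, and 709 ± 402 TPM in liver. Some members differed little between tissues. S35B1, a nucleotide transporter of the endoplasmic reticulum and the highest of its family, had tissue means from 26.7 to 45.2 TPM, and S15A4 (PHT1), a lysosomal peptide and histidine transporter, from 13.9 to 31.6 TPM.

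ET-type and L-type animals were compared within each tissue by limma over all genes with a mean of 1 TPM there. No member was called in heart (53 tested), kidney (81), liver (60) or lung (72), where 0.0238%, 0.00376%, 0.00933% and 0.213% of all genes were called. At an unadjusted p below 0.05 stood 21 of 53 members in heart, 6 of 81 in kidney, 9 of 60 in liver and 17 of 72 in lung. The shares of all genes were 22.2%, 8.7%, 6.58% and 16.2%. With 1 fit of all 49 libraries and the animal as a block, 5 of 85 tested members passed in heart, 1 in kidney, 5 in liver and 1 in lung, against 2.77%, 0.693%, 1.31% and 2.91% of all genes. That fit also takes each gene's variance over all tissues and filters on the mean over all libraries. The part of the block itself in these counts was not tested. In spleen 17 of 69 tested members were called, all lower in ET-type. Without adjustment 36 of 69 spleen members, against 44.2% of all genes, had p below 0.05. The sexes and ages behind the types are not given, so they and the type cannot be told apart.

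The spleen difference ran across most genes. Of the tested members 65 had a lower ET-type mean, with a median log2 difference of -0.51 against -0.47 over all genes, and 24.6% were called lower against 21.5% of all genes. In 10 of the 69 tested members every ET-type spleen was below every L-type spleen, as it was in 15.5% of all genes. Haemoglobin transcripts took 21.4% ± 9.46 of TPM in ET-type spleens (SD, n = 5) and 7.14% ± 6.77 in L-type spleens. Macrophage markers summed to 112 to 518 TPM in ET-type and 518 to 1220 TPM in L-type spleens, and lymphoid markers to 368 ± 108 and 732 ± 368 TPM, and their part in the difference was not tested.

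Ascorbate carriers were among the lowest relative to L-type. S23A1 was at 3.83, 2.36, 1.94, 3.23 and 2.67 TPM in the ET-type spleens (in the order S0235, S0242, S0276, S0309, S0326) and at 5.07, 4.41, 22.96, 9.57 and 14.0 TPM in the L-type spleens (S0349, S0355, S0377, S0384, S0385). The types did not overlap, with a log2 difference of -1.48 ± 0.37 (adjusted p = 0.0281). S23A2 was at 5.66, 4.19, 2.58, 4.12 and 2.11 TPM against 7.29, 7.38, 13.7, 7.36 and 14.7 TPM, again without overlap (-1.22 ± 0.28, adjusted p = 0.0257). S35E2, a member of the nucleotide sugar transporter family, was at 0.344 to 2.11 TPM against 3.53 to 6.64 TPM (-1.31 ± 0.25, adjusted p = 0.023).

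Among the other called spleen members, GTR11 (-1.003 ± 0.22), S12A7 (KCC4, a potassium-chloride cotransporter; -0.98 ± 0.24), S2536 (a mitochondrial pyrimidine nucleotide carrier; -0.79 ± 0.19), S352B (-1.08 ± 0.30), S53A1 (the phosphate exporter XPR1; -0.96 ± 0.27), S38AA (-0.71 ± 0.21) and S12A9 (-0.62 ± 0.18) had the smallest p. Members with a higher ET-type mean did not pass; S12A3 (0.41), GLUT4 (0.15) and GTR10 (0.12) had adjusted p of 0.86, 0.705 and 0.676. With mitochondrial and haemoglobin transcripts left out 6 of 70 tested members were called, all among the 17, against 8.44% of all genes. With median-ratio scaling 3 of 67 were called, against 3.09% of all genes; of the 3, S35E2 was lower and S25A3 and S2543 were higher. Under median-ratio scaling the median member differed by -0.04 and 34 of 67 were lower. Leaving out ET-type S0276, ET-type S0326, L-type S0377 or L-type S0385 left 0 member calls, where 1.05%, 0.462%, 0.174% and 0.214% of all genes were called. Leaving out L-type S0384 left 2 of 69 (S23A2 and S35E2), against 3.06% of all genes, and leaving out ET-type S0242 left 8 of 69, against 10.7%. With the animal as a block 18 of 85 members passed, 12 of them among the 17, against 20.7% of all genes.

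**Figure D4:**
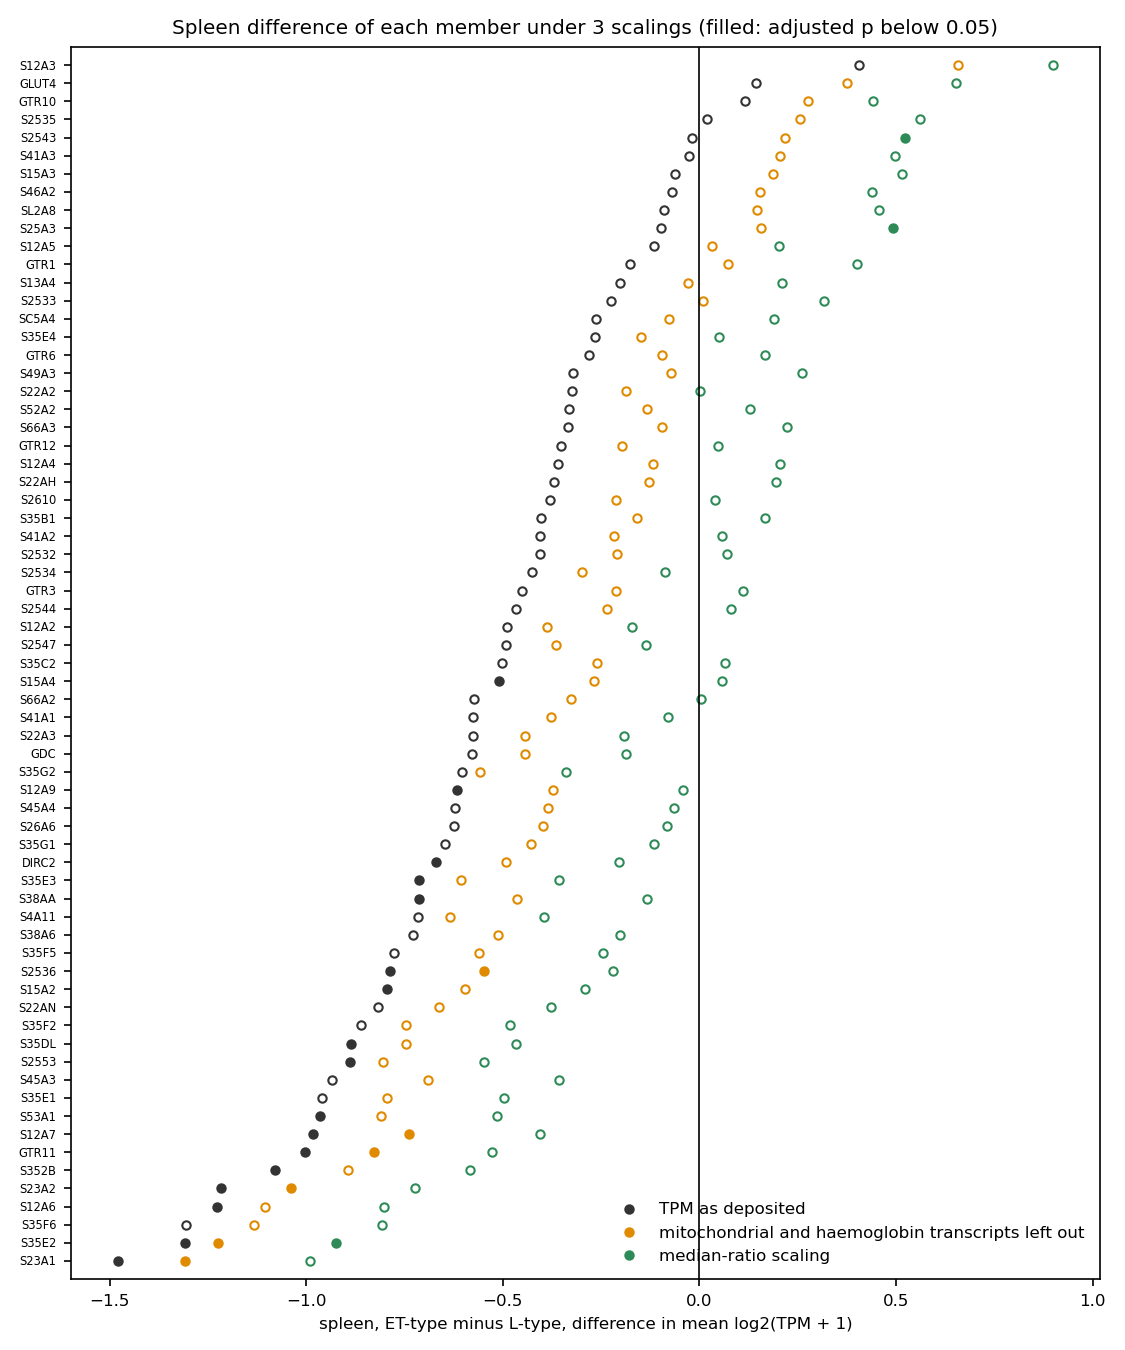
Each row is 1 of 67 members tested under all 3 scalings, and the x axis is the spleen difference of ET-type minus L-type in mean log2(TPM + 1), filled where the adjusted p was below 0.05. Black points (TPM as deposited) lie left of 0 for most members, orange points (mitochondrial and haemoglobin transcripts left out) are shifted right, and green points (median-ratio scaling) are spread around 0.

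In heart, S2534 had the smallest p of any member. S2534 (SLC25A34), a mitochondrial carrier without an established substrate, was at 19.9, 23.7, 13.0, 5.19 and 6.21 TPM in the ET-type hearts and at 24.4, 45.3, 62.7, 42.0 and 42.0 TPM in the L-type hearts. Every ET-type heart was below every L-type heart, as for 1.57% of all genes, and the log2 difference was -1.75 ± 0.39 (adjusted p = 0.0863, not passing). With the animal as a block the adjusted p was 0.00218, and without ET-type S0242 it was 0.025.

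The difference in S2534 had the same sign in all tissues. Its means were 14.5 ± 6.38 TPM (ET-type, n = 4) and 26.7 ± 8.09 TPM (L-type, n = 5) in kidney, 10.1 ± 2.08 and 21.3 ± 9.11 TPM in liver, 1.46 ± 0.831 and 3.73 ± 1.38 TPM in lung, and 1.11 ± 0.358 and 1.86 ± 0.586 TPM in spleen, and the ranges overlapped in these. Over each animal's mean of heart, liver, lung and spleen the log2 difference was -1.01 ± 0.14 (adjusted p = 0.0504), and 0 of 76 tested members passed against 0.0104% of all genes. In that comparison 24 of 76 members had an unadjusted p below 0.05, against 18.5% of all genes. S2534 alone passed, at 0.0409 to 0.0453, under each of 5 alternatives, among them leaving out ET-type S0235, S0276 or S0309. S66A2 (-0.66 ± 0.12) and S12A7 (-0.62 ± 0.12) followed, both at an adjusted p of 0.0976.

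Other heart members near the threshold went both ways. Of the 53 tested members, 2 were lower and 4 higher in every ET-type heart than in any L-type heart, against 1.57% and 3.11% of all genes. S41A1 averaged 65.3 ± 24.0 TPM in ET-type and 212 ± 143 TPM in L-type hearts (adjusted p = 0.0965; 0.0159 with the animal as a block), and GTR3 38.1 ± 9.87 and 69.1 ± 16.8 TPM (0.094). S15A3 (3.01 ± 1.41 against 0.952 ± 0.428 TPM), S22AH (8.53 ± 2.79 against 4.17 ± 1.01 TPM) and S49A3 (8.14 ± 4.09 against 3.02 ± 0.863 TPM) had higher ET-type means, with adjusted p of 0.0941, 0.0938 and 0.0941. Heart muscle markers summed to 7941 ± 3045 TPM in ET-type and 13485 ± 2600 TPM in L-type hearts, lymphoid markers to 172 ± 102 and 41.2 ± 17.4 TPM, and endothelium markers to 153 ± 46.01 and 86.05 ± 16.7 TPM, and their part in these differences was not tested. Without ET-type S0242 10 of 53 heart members passed, 6 of them higher in ET-type, against 10.2% of all genes, of which 64.1% were higher.

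In liver, S66A2 and SC5A4 had the smallest p of the members. S66A2 was at 14.8, 16.2, 11.5, 25.3 and 9.98 TPM in ET-type and at 32.4, 30.2, 26.9, 24.8 and 35.3 TPM in L-type livers, the range of ET-type reaching into that of L-type through S0309 alone (-0.96 ± 0.24, adjusted p = 0.397). S22A7 was at 432 to 750 TPM in ET-type livers, and at 138 to 358 TPM in 4 L-type livers and 857 TPM in the fifth, S0355 (0.95 ± 0.40, adjusted p = 0.721). S2548 averaged 0.497 TPM in ET-type and 6.36 TPM in L-type livers (-1.89 ± 0.59, adjusted p = 0.607). SC5A4 averaged 10.4 ± 4.45 against 3.72 ± 1.49 TPM (adjusted p = 0.397). With the animal as a block these passed, at adjusted p of 0.0153 for S66A2, 0.0398 for S22A7, 0.0111 for S2548 and 0.00596 for SC5A4, as did S2545.

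In lung, S38AA (63.0 ± 11.6 against 98.2 ± 13.6 TPM), S22AN (13.8 ± 2.83 against 22.9 ± 3.01 TPM) and S35C2 (16.0 ± 1.67 against 25.5 ± 3.92 TPM) had the smallest p among members with a lower ET-type mean, with adjusted p of 0.103, 0.105 and 0.106. S22AN and S35C2 were lower in every ET-type lung than in any L-type lung, as were 5 of 72 tested members in all and 3.67% of all genes. S2536 (67.9 ± 19.1 against 37.9 ± 6.67 TPM) had a higher ET-type mean (adjusted p = 0.124). Mitochondrial transcripts took 8.94% ± 4.27 of TPM in ET-type and 3.94% ± 0.601 in L-type lungs. Lung epithelium markers summed to 3997 ± 1458 TPM in ET-type and 13878 ± 6826 TPM in L-type lungs, and macrophage markers to 44.8 ± 26.2 and 170 ± 148 TPM, and their part in these differences was not tested.

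In kidney the members with the smallest p were S12A7 (28.5 ± 7.85 against 48.2 ± 13.0 TPM), S4A11 (41.7 ± 8.22 against 77.5 ± 33.4 TPM) and S23A3 (79.9 ± 59.1 against 203 ± 130 TPM), all at an adjusted p of 0.573, and S67A1 had a higher ET-type mean (182 ± 48.9 against 113 ± 34.7 TPM) at the same adjusted p. Of the 81 tested members 1 was lower in every ET-type kidney than in any L-type kidney, against 2.77% of all genes. S22AC overlapped between types. S22AC was at 305, 606, 580 and 297 TPM in ET-type kidneys and at 622, 782, 571, 357 and 464 TPM in L-type kidneys. S23A3 passed with the animal as a block (adjusted p = 0.0442). Endothelium markers summed to 31.7 ± 3.85 TPM in ET-type and 69.5 ± 20.5 TPM in L-type kidneys, and their part in these differences was not tested.

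Whether the type difference varied between tissues was tested by the interaction of type and tissue, with 49 libraries. Of 85 members 5 passed (5.88%), against 6.1% of all genes. S2536 had the smallest p (adjusted p = 0.0229), with a higher ET-type mean in lung, given above, and a lower one in spleen, at 22.05, 20.8, 15.2, 25.2 and 14.1 TPM against 36.3, 27.1, 32.4, 31.6 and 42.4 TPM. Its interaction call was lost under 7 of the settings varied, with adjusted p up to 0.123. Of its 5 transcripts, 4 are left out by the stricter protein match. S23A1 (0.0284) differed in spleen, as given above, and overlapped between types in the other 4 tissues. S22AH (0.0298), S352B (0.0392) and S12A2 (NKCC1, 0.0445) had higher ET-type means in heart and lower ones in spleen. In the fits per tissue, S22AH was lowest relative to L-type in lung (-0.75, adjusted p = 0.148). Its spleen difference was -0.37 (adjusted p = 0.251) and became 0.20 with median-ratio scaling. S352B was also lower in liver (-0.71, adjusted p = 0.779). For S12A2 the means were 6.56 ± 2.30 against 3.20 ± 0.90 TPM in heart and 0.876 ± 0.33 against 1.67 ± 0.68 TPM in spleen.

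The interaction count was sensitive to the samples and the scaling. It was 13 of 85 with the animal as a block, the 5 among them, against 13.1% of all genes. It was 9 of 86 with mitochondrial and haemoglobin transcripts left out, against 6.11%, and 1 of 84 with median-ratio scaling, which was S25A3, against 3.73%. With the S0235 kidney library kept it was 1, which was S2536, against 1.81% of all genes. It was 0 without ET-type S0326, L-type S0377, S0384 or S0385, where 0.968%, 1.61%, 1.51% and 0.766% of all genes were called. It was 1 without ET-type S0276 or L-type S0349, against 2.71% and 3.02%, 8 without L-type S0355, against 6.47%, and 14 without ET-type S0242, against 9.69%.

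**Figure D5:**
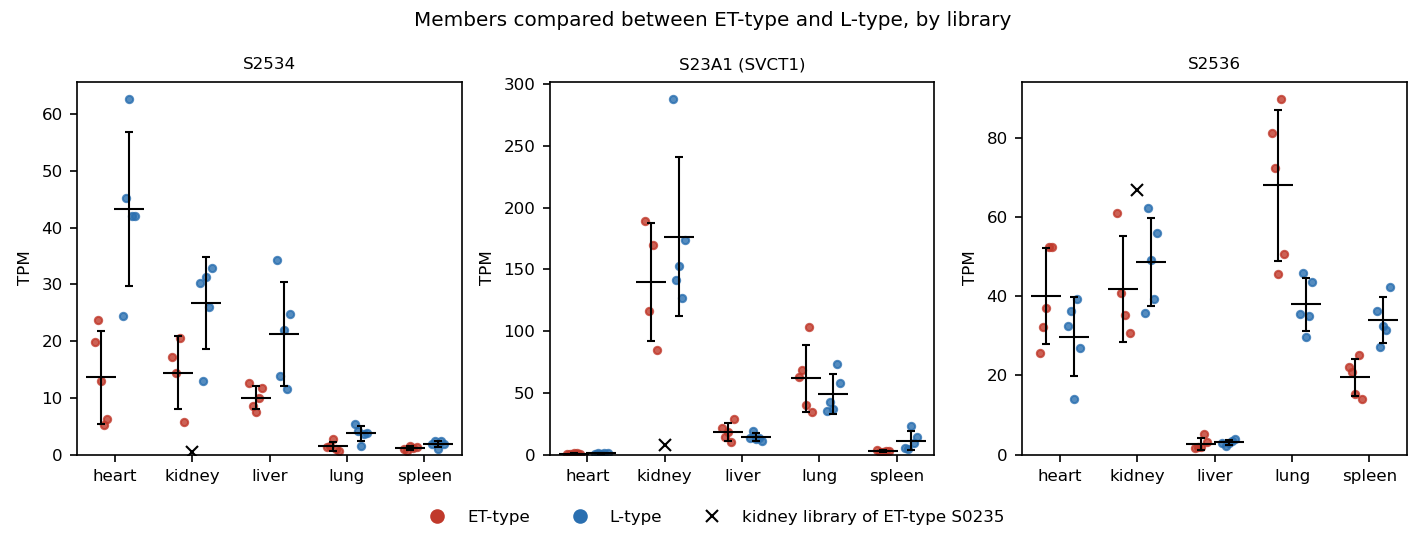
Each point is the TPM of 1 library for S2534, S23A1 and S2536, in columns for the 5 tissues, red for ET-type and blue for L-type, with the mean and SD of each type as black bars and the kidney library of ET-type S0235 as a cross. The ET-type mean of S2534 is lower in all 5 tissues, and S2536 is higher in ET-type lungs and lower in ET-type spleens.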

How the data were processed

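The values are TPM per assembled transcript in 50 libraries, deposited by the authors with a table of Swiss-Prot matches for each transcript. Per the labels' protocols, RNA was extracted with TRIzol and libraries were made with a stranded mRNA kit. The submitters' processing notes name Trimmomatic 0.36, Salmon 1.10.0 and the build Sscrofa11.1; the role of the build and the assembler are not given in the sources used here. Each library sums to 1000000, so a transcript that takes a large share lowers the others, and no count is given, so depth is unknown and no counting interval can be had.

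Transcripts were summed per Swiss-Prot entry (35133 genes, counting a transcript without an entry as 1), and limma 3.58.1 (R 4.3.3) was fitted to log2(TPM + 1) where a gene's mean reached 1 TPM, with Benjamini-Hochberg adjustment over all genes tested. Type was fitted within each tissue, tissue and interaction over 49 libraries in 10 groups, and type over 4 tissues on each animal's mean. The scripts were tested on simulated data. Pairing comes from the labels, which give 1 animal number to the 5 tissues; the consensus correlation within animal was 0.1242. The fits do not use it, and the block is an alternative. For type within a tissue this alternative also replaces the fit per tissue by 1 fit of all 49 libraries, with its variance and filter. The members, marker and partner lists were chosen with earlier results of these data known, and so was the choice to leave out the S0235 kidney. Members named are the 3 markers S12A1, S12A3 and S22AC, those called higher in a tissue (20 in kidney and at most 12 in others, by log2 difference), the 3 with the highest mean per tissue, those passing per type fit (at most 10 per direction by p, otherwise the 3 smallest p, as not passing), the 8 smallest interaction p and the highest of each class with 3 or more members. S22AA, the members listed by sign in all tissues and the transcripts of S12A3, S12A4, S22AA and SC5A4 were described after their values were seen. Symbols and the location of 77 members come from RefSeq (Sscrofa11.1). The settings varied were the pseudocount (0.1), the filter (none, or a mean of 5 TPM), the scaling (median-ratio), leaving out mitochondrial and haemoglobin transcripts, leaving out each animal, keeping the S0235 kidney, the animal as a block and, added after seeing the data, a stricter protein match that leaves out 53 member transcripts (41 with fewer than 100 matched residues, 12 with another protein's open reading frame). The 16 alternatives to which tissue calls are held exclude the last and the mean of 5 TPM. Animals are the replicates.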

Additional observations from a re-analysis of the deposited data

Results flagged for a closer look

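In 80 groups of 4 or 5 libraries checked for a library far from the others, on the log2 scale, 2 had one, where chance gives about 1 in 20. S12A3 was at 0.125 TPM in the spleen of ET-type S0309, against 34.8 to 125 TPM in the other ET-type spleens; this is one of the 3 animals low in the short S12A3 transcript in every tissue. S12A1 was at 237 TPM in the kidney of L-type S0385, against 63.6 to 90.6 TPM in the other L-type kidneys, and UROM was at 5281 TPM there. The difference between types varied with tissue, by the interaction test, for S2536 (adjusted p = 0.0229), S23A1 (0.0284), S22AH (0.0298), S352B (0.0392) and S12A2 (0.0445).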

How the results depend on the processing

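TPM give shares of a library, not amounts, and 4 or 5 animals a type leave wide errors. Over the members named, 1659 values kept their direction and side of the threshold, 133 lost the call, 29 gained it and 10 changed sign. In the 1 fit of all 49 libraries blocked by animal, the type counts were 5 in heart, 1 in kidney, 5 in liver and 1 in lung, and 13 for the interaction. All tissue calls were also made with the block. In spleen the count was 9 at a mean of 5 TPM, 3 with median-ratio scaling and 6 without mitochondrial and haemoglobin transcripts, and 0 to 23 leaving out 1 animal. In heart it was 0 to 10 and for the interaction 0 to 14 leaving out 1 animal; the interaction gave 1 with median-ratio scaling, 9 without mitochondrial and haemoglobin transcripts and 1 with the S0235 kidney kept. Over 4 tissues it was 1 with no filter and 1 at a mean of 5 TPM, and 0 to 1 leaving out 1 animal. With median-ratio scaling 10 members were called in heart, 16 in liver and 4 in lung. The cause of these shifts was not tested, other than that a filter at 5 TPM tests fewer genes. Signs changed for S67A1 in kidney with the S0235 kidney kept (-0.75), S22A7 over 4 tissues at a pseudocount of 0.1 (-0.051) and, by the stricter match, S12A4 in liver (-0.43) and SC5A4 in lung (-0.26). Leaving out 1 animal, they changed for S15A3 in kidney (-0.071 to 0.62), and in spleen for GTR10 (-0.017 to 0.20), GLUT4 (-0.022 to 0.30) and S12A3 (-0.63 to 1.59).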

Other observations

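Of the 89 members, 15 had a lower ET-type mean in all 5 tissues (DIRC2, GTR12, GTR3, S12A6, S12A7, S22A3, S2533, S2534, S2544, S35DL, S35E1, S35E4, S41A1, S45A4 and S66A2) and 1 a higher mean in all 5. They were picked by that sign, so this is a count with no test, and the tissues of 1 animal are not independent. The share over all genes was not counted. The median log2 difference of all genes was also below 0 in kidney (-0.28), liver (-0.06), lung (-0.15) and spleen (-0.47), and was 0.09 in heart. Some of the 15 were near the floor, S22A3 reaching a mean of 1 TPM in 3 tissues only. Sodium channel subunits on the partner list were high in lung as well as kidney: SCNNA averaged 118 ± 34.5 TPM in lung and 60.9 ± 53.5 TPM in kidney, and it was called higher in lung. NTCP, the hepatic bile acid uptake carrier, averaged 106 ± 37.2 TPM in liver and at most 0.119 TPM in the other tissues.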
